A study of Mus musculus with 4 samples.

Results

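A set of 8 transcription factor genes of the myeloid lineage was followed through the 4 RNA-seq libraries of the series. They are the 6 mouse genes named for C/EBP (Cebpa, Cebpb, Cebpd, Cebpe, Cebpg and Cebpz) together with Irf8 and Gfi1, and they were taken by their gene symbols from a table of 12417 genes. All 8 were found, 6 of them with a row in every library. The libraries came from bone marrow of C57BL/6 mice, wild-type (WT) or carrying the GRK6 knockout (GRK6-/-), which targets a kinase of G protein-coupled receptors in all cells. Per the study's methods, the genotypes were littermates from heterozygote crosses, and its mice were 8 to 12 weeks old unless stated otherwise. Hematopoietic stem cells (HSC) were sorted as Lin-c-kit+sca-1+, and common lymphoid progenitors (CLP) through that same gate with Il-7Ra+ added. Each library pooled the cDNA of 13 to 15 cells from 3 to 4 mice, and the mouse of each cell is not given in the sources used here. There was 1 library per group (HSC and CLP of each genotype), so no difference between libraries has a replicate check.

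C/EBP proteins bind DNA as dimers through a basic region followed by a leucine zipper. C/EBPα drives progenitors into the granulocyte-monocyte lineage, C/EBPε is needed for the secondary granules of neutrophils, and C/EBPβ takes part in granulopoiesis under stress. IRF8 favours monocytes and dendritic cells over neutrophils and also acts in early B cells, while GFI1 is a repressor that supports neutrophil and lymphoid development and restrains HSC proliferation.

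The stretch that codes for the basic region is printed here for Cebpa, Cebpb, Cebpe and Cebpg, to show how alike they are, because reads could only be misassigned between members where their sequences match. Each window holds 60 coding bases, read 5′ to 3′ on the coding strand of the mm9 genome, and the capitals mark the 35 bases that were the same in all 4 genes. The windows lie at chr7:35905290-35905349 (Cebpa, plus strand), chr2:167515191-167515250 (Cebpb, plus), chr14:55329547-55329606 (Cebpe, minus) and chr7:35835607-35835666 (Cebpg, minus).
Cebpa: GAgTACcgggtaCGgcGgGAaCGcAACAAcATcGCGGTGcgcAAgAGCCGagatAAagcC
Cebpb: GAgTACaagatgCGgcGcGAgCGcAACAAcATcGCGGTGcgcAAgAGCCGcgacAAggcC
Cebpe: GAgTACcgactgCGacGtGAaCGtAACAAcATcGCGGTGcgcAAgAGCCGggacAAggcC
Cebpg: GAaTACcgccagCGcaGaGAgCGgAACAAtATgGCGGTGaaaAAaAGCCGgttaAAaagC
Cebpb and Cebpe each matched Cebpa at 51 of the 60 bases, and Cebpg at 38. Translated, the windows of Cebpb, Cebpe and Cebpg shared 18, 19 and 15 of 20 residues with that of Cebpa. The best match in Cebpz was 7 of 20, and in Irf8 and Gfi1 it was 6. No window or best match is given for Cebpd, which the annotation types as a pseudogene, so its likeness to the others is not shown. Cebpz carries the C/EBP name without this basic region, and its product is known as a nucleolar protein. Over whole annotated transcripts, the longest run shared exactly by any of the 28 pairs of members was 29 bases, against a read length of 100 bases. The annotated transcript of Cebpd ends before its deposited rows do, so the last part of Cebpd was not compared.

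In the mm9 annotation, Cebpa (chr7:35904312-35906945, plus strand) and Cebpb (chr2:167514415-167515918, plus) are genes of a single exon. Cebpe lies at chr14:55329200-55331011 (minus, 2 exons), Cebpg at chr7:35831441-35841522 (minus, 2 exons) and Cebpz at chr17:79318346-79336410 (minus, 16 exons). Irf8 lies at chr8:123260258-123280594 (plus) and Gfi1 at chr5:108145674-108155056 (minus, 7 exons in its longest transcript). Cebpd starts at chr16:15887379 on the plus strand and ends at base 15888559 in the annotation, which types it as a pseudogene, but between bases 15889822 and 15890048 in the deposited rows. Exons of Cebpb, Cebpz and Gfi1 overlap a gene on the opposite strand over 312, 312 and 101 bases. The sources do not say whether counting used strand, so reads in these stretches cannot be assigned to either gene. The transcripts of Cebpa, Cebpb, Cebpd and Cebpe are rich in G and C, at 61.6% to 67.2% against a median of 49.4% over 22611 coding genes.

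The upstream sequence of Irf8 is shown because Irf8 had the widest range of values. It runs from 250 bases before to 50 bases after a transcription start in RefSeq, at chr8:120736108-120736407 on the plus strand of GRCm38.p6, a later build than that of the expression values. Capitals mark matches to TTCNNNGAA, the interferon-responsive GAS element, and to CCAAT, here as its reverse complement.
Irf8: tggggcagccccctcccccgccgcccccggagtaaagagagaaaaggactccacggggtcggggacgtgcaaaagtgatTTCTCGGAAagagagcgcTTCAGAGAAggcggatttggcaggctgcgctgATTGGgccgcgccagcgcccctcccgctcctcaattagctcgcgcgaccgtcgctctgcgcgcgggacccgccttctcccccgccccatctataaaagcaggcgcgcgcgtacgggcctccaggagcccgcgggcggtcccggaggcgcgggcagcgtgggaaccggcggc
The window held 2 matches to TTCNNNGAA, which 8.30% of 32851 promoters matched at least at 1 place on either strand. It held 1 match to CCAAT, which 37.4% of promoters matched. It held no match to TTGCNNAA, a C/EBP site (10.8% of promoters), to GAGGAA, a PU.1 core (28.3%), or to GAAANNGAA, an interferon response element (8.56%). Irf8 also has a start at chr8:120738389-120738688 in the table, whose window matched none of the 5 motifs. Of the other promoters in the table, the Cebpa and Cebpb windows matched none of the 5 motifs, Cebpg matched CCAAT at 2 places, and a start of Gfi1 matched TTGCNNAA at 1 place. These are matches of letters and no evidence of binding. No window is printed for Cebpd, Cebpe and Cebpz.

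Expression was given as FPKM, fragments per kilobase of transcript scaled to the mapped fragments of the library. Where different genes are ranked below, these values are taken as given. Errors from amplification, base content or uncertain transcript length are not in the intervals. The smallest FPKM steps gave a depth of 2780000 to 4450000 fragments per library, with 74.4% to 82.5% of the low values used lying on such steps. This depth is an estimate well below the number of reads the paper reports for each lineage, and the gap was not examined. From this depth, the counting error of each value was taken as an exact 95% Poisson interval. The interval covers neither amplification nor sampling of cells. The targeted gene Grk6 stood at 42.7 FPKM in WT HSC against 89.4 in GRK6-/- HSC, and at 26.9 in WT CLP against 57.6 in GRK6-/- CLP. It was thus higher in both libraries labelled GRK6-/-, the reverse of what a loss of its transcript would give. The study describes the knockout as a deletion of exons within the gene. A gene-level FPKM also counts reads from the exons that are left and cannot be split by exon, so Grk6 does not check the labels. "GRK6-/-" below means the library labelled so. Of 10 CLP markers, 3 and 6 had a row in the HSC libraries and 10 and 9 in the CLP libraries, with summed levels of 173 and 119.7 against 2961 and 2324 FPKM. HSC markers had a row for 8 or 9 of 10 genes in each library, and Ly6a, which encodes Sca-1, had no row of its own in any. The HSC markers summed to 274 (WT) and 446 FPKM (GRK6-/-) in HSC and to 293 (WT) and 427 (GRK6-/-) in CLP, so their sums did not set the populations apart. Neutrophil and granulocyte-monocyte progenitor genes had a row for 7 or 8 of 10 in each library, with 7764 to 17804 FPKM summed. Most of each sum came from Elane, Mpo, Prtn3 and Ctsg, while Lcn2 was at 4.19 to 45.3 FPKM. Erythroid genes, 6 or 7 of 10 of which had a row in each library, summed to 45.3 (WT) and 768 FPKM (GRK6-/-) in HSC and to 65.3 (WT) and 17594 (GRK6-/-) in CLP, and 17219.5 of the last sum was Hba-a2, a globin chain. Where 4 values are given below without labels, the 2 HSC libraries come before the 2 CLP libraries, with WT ahead of GRK6-/- in each pair.

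Of the 32 values of the 8 genes, 30 had a row and all of these were at least 1 FPKM. Irf8 ranged most widely, from 1.12 FPKM in WT HSC to 190.3 in GRK6-/- CLP. In WT HSC, Gfi1 (37.6 FPKM), Cebpe (36.3) and Cebpz (28.2) were highest, and the interval of Cebpe overlapped those of both others. Cebpd, Cebpa and Cebpg followed at 15.8, 11.8 and 5.52, and Cebpb (1.74) and Irf8 (1.12) were lowest and not separable by counting error. GRK6-/- HSC had Irf8, Cebpe and Gfi1 at the top with 41.2, 40.0 and 36.6 FPKM, in overlapping intervals. In WT CLP the order was Irf8 (152 FPKM), Cebpz (38.4), Cebpa (26.6), Gfi1 (24.1), Cebpb (11.9), Cebpg (5.29) and Cebpe (1.84), and only Cebpa and Gfi1 among neighbours overlapped. In GRK6-/- CLP it was Irf8 (190.3), Cebpz (52.6), Cebpe (28.0) and Gfi1 (18.3), with no overlap of counting intervals. Cebpg, Cebpd and Cebpa came next, between 8.43 and 6.92 with overlapping neighbours.

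**Figure D1:**
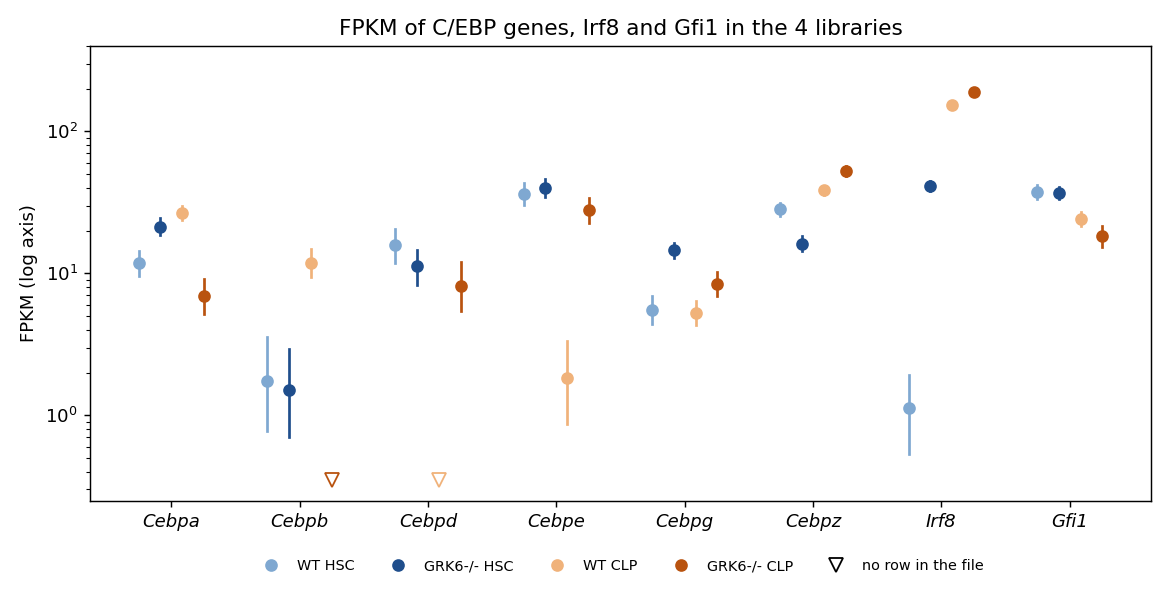
FPKM of the 8 genes in the 4 libraries on a log axis, with 1 point per library and lines for the exact 95% Poisson interval of the estimated fragments. Open triangles mark a gene with no row, which are Cebpb in GRK6-/- CLP and Cebpd in WT CLP. Irf8 spans 1.12 to 190.3 FPKM.

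The ranks within each library do not depend on scaling between libraries. Among the HSC rows, Irf8 stood at percentile 12.6 (WT) and 81.4 (GRK6-/-), and among the CLP rows at 94.5 (WT) and 95.9 (GRK6-/-). Cebpe stood at percentiles 77.7, 80.8, 16.5 and 70.7 in the same order, low in WT CLP alone. Gfi1 kept between percentiles 60.4 and 79.3, and Cebpz between 62.4 and 83.7.

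**Figure D2:**
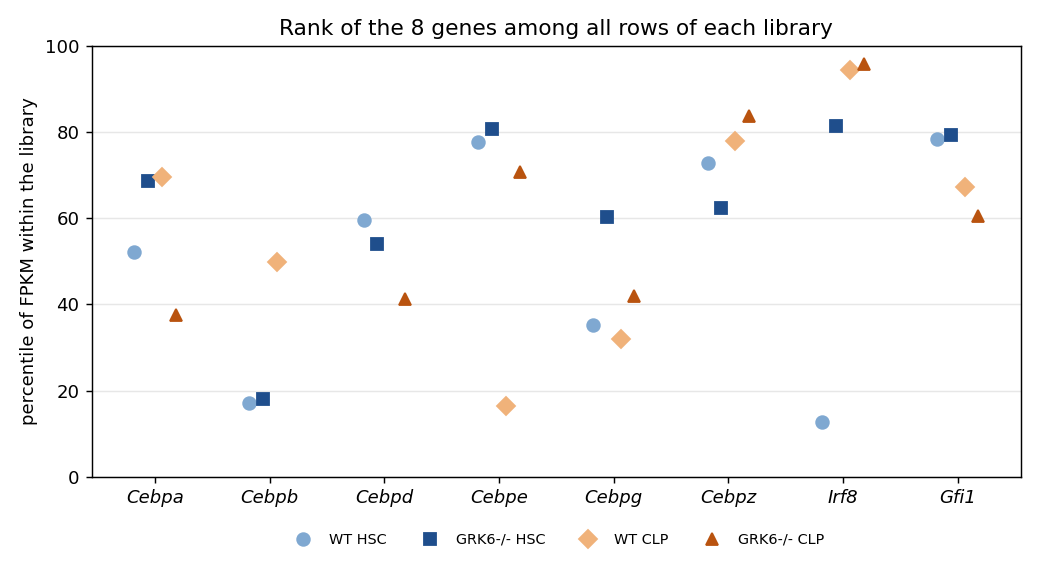
Percentile of each gene's FPKM among all rows of its library, with 1 point per library and no point where the gene has no row. Irf8 moves from percentile 12.6 in WT HSC to above 80 in the other 3 libraries, and Cebpe drops to 16.5 in WT CLP.

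The comparison of GRK6-/- with WT asks how loss of GRK6 relates to gene expression in each population. Differences were taken as log2 ratios of FPKM + 1 among genes with at least 1 FPKM in either library, and a gene was called past 2-fold where that ratio passed 1 in size. In HSC, 2 of the 8 genes were higher in GRK6-/- past 2-fold and none was lower. Over all 10256 genes tested, 21.9% were higher and 20.4% lower. The median log2 ratio of the 8 genes was 0.05 and that of all genes 0.03. In CLP, 2 genes were higher and 2 lower, against 29.1% and 25.7% of 10214 genes. The medians there were 0.38 and 0.04. Read against these shares, the counts are no result about the 8 genes as a set.

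Of the 8 genes, Irf8 differed most in HSC. Its level was 1.12 FPKM in WT HSC (about 11 estimated fragments) and 41.2 in GRK6-/- HSC (555 fragments). In CLP it was 152 FPKM in WT and 190.3 in GRK6-/-. WT HSC thus stood far below the other 3 libraries, and both CLP libraries stood above both HSC libraries. The FPKM ratio in HSC was 36.9 (95% counting interval 21.3 to 77.6), with a log2 ratio of 4.32, and 1.33% of all genes tested had a ratio as large in either direction. In CLP the log2 ratio was 0.32. Levels of pooled cells cannot tell a larger number of Irf8-expressing cells from more Irf8 RNA per cell, which holds for every value here. Markers of dendritic cells, which depend on IRF8, had rows for 4 or 5 of 6 genes in each library. Their summed levels were 109 (WT) and 38.2 FPKM (GRK6-/-) in HSC and 89.2 (WT) and 1423 (GRK6-/-) in CLP. The HSC sums were mostly H2-Ab1, an MHC class II chain that B cells carry as well, at 93.2 and 22.5 FPKM. Bst2 was at 8.95 (WT) and 14.4 FPKM (GRK6-/-) in HSC, and Siglech at 0.148 and 0.111. In GRK6-/- CLP, Cd74, H2-Ab1, Siglech and Bst2 were at 191 to 483 FPKM. The part of such cells in the level of Irf8 was not tested in either population.

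Cebpa, the inducer of the granulocyte-monocyte program, lay in opposite directions in the 2 populations. HSC held 11.8 (WT) and 21.3 FPKM (GRK6-/-), and CLP 26.6 (WT) and 6.92 (GRK6-/-), so that GRK6-/- CLP was lowest. The log2 ratio of GRK6-/- to WT was 0.81 in HSC, under the 2-fold limit, and -1.80 in CLP, a level 3.84 times lower (interval 2.84 to 5.25). A difference of this size was common in CLP, where 31.3% of genes had a ratio as large in either direction. Spi1, which encodes the myeloid factor PU.1 and is named Sfpi1 in the files, was at 133, 202, 177 and 72.8 FPKM in the same order of libraries. Its log2 ratios were 0.60 in HSC and -1.27 in CLP.

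Cebpb was at 1.74 FPKM in WT HSC and 1.495 in GRK6-/- HSC, on about 8 and 9 estimated fragments. It was at 11.9 in WT CLP and had no row in GRK6-/- CLP, where 3 fragments would be worth 0.718 FPKM. WT CLP was the only library in which Cebpb was above 2 FPKM. Csf1r, the receptor of the monocyte growth factor M-CSF, stood at 0.889, 11.6 and 16.6 FPKM and also had no row in GRK6-/- CLP. Of 9 monocyte and macrophage marker names, in which Adgre1 and Emr1 stand for the same gene, 4 genes had a row anywhere. Their summed levels were 9.37, 16.9, 44.5 and 1.999 FPKM. Csf1r, Cd14 and Cx3cr1 had no row in GRK6-/- CLP. The part of such cells in the Cebpb values was not tested.

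Cebpd was at 15.8 (WT) and 11.2 FPKM (GRK6-/-) in HSC and at 8.15 in GRK6-/- CLP, and had no row in WT CLP, where 3 fragments would be worth 0.571 FPKM. Cebpe was at 36.3, 40.0 and 28.0 FPKM in these libraries and at 1.84 in WT CLP, on 10 estimated fragments. WT CLP was thus lowest for both. The other 3 libraries lay at 28.0 to 40.0 FPKM for Cebpe and, more spread, at 8.15 to 15.8 for Cebpd. Cebpe was 15.2 times higher in GRK6-/- CLP than in WT CLP (interval 8.004 to 33.1, log2 ratio 3.35), and its log2 ratio in HSC was 0.14. In CLP, 9.35% of genes had a ratio as large as that of Cebpe in either direction. For Cebpd the HSC log2 ratio was -0.46, and no fold is given in CLP. Among the 28 pairs of the 8 genes, this pair had the smallest root mean square difference of centred log2(FPKM + 1) over the 4 libraries, at 0.23.

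Cebpg, a widely expressed partner that lacks an activation domain, was at 5.52 (WT) and 14.6 FPKM (GRK6-/-) in HSC and at 5.29 (WT) and 8.43 (GRK6-/-) in CLP. GRK6-/- HSC was highest, 2.64 times the WT level (interval 2.03 to 3.44, log2 ratio 1.25). A ratio of this size was common, since 32.3% of genes had one as large. The log2 ratio in CLP was 0.58. Cebpz was at 28.2, 16.2, 38.4 and 52.6 FPKM, lowest in GRK6-/- HSC, with log2 ratios of -0.76 in HSC and 0.45 in CLP, both under the limit.

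In HSC, Gfi1 differed least between genotypes, at 37.6 FPKM in WT and 36.6 in GRK6-/-. In CLP it was at 24.1 in WT and 18.3 in GRK6-/-. Both HSC libraries were above both CLP libraries. The log2 ratios were -0.04 in HSC and -0.38 in CLP, and the counting interval of the FPKM ratio in HSC was 0.841 to 1.13. Its paralog Gfi1b, a repressor that acts within the erythroid and megakaryocyte lineages, was at 7.66, 25.8, 3.22 and 24.7 FPKM, higher in both GRK6-/- libraries, with log2 ratios of 1.63 and 2.61. The erythroid factors Klf1 and Gata1 were higher there too, with log2 ratios of 3.43 and 2.07 in HSC and 6.00 and 3.72 in CLP. The erythroid marker sums given above were likewise higher in both, and their part in the Gfi1b values was not tested.

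**Figure D3:**
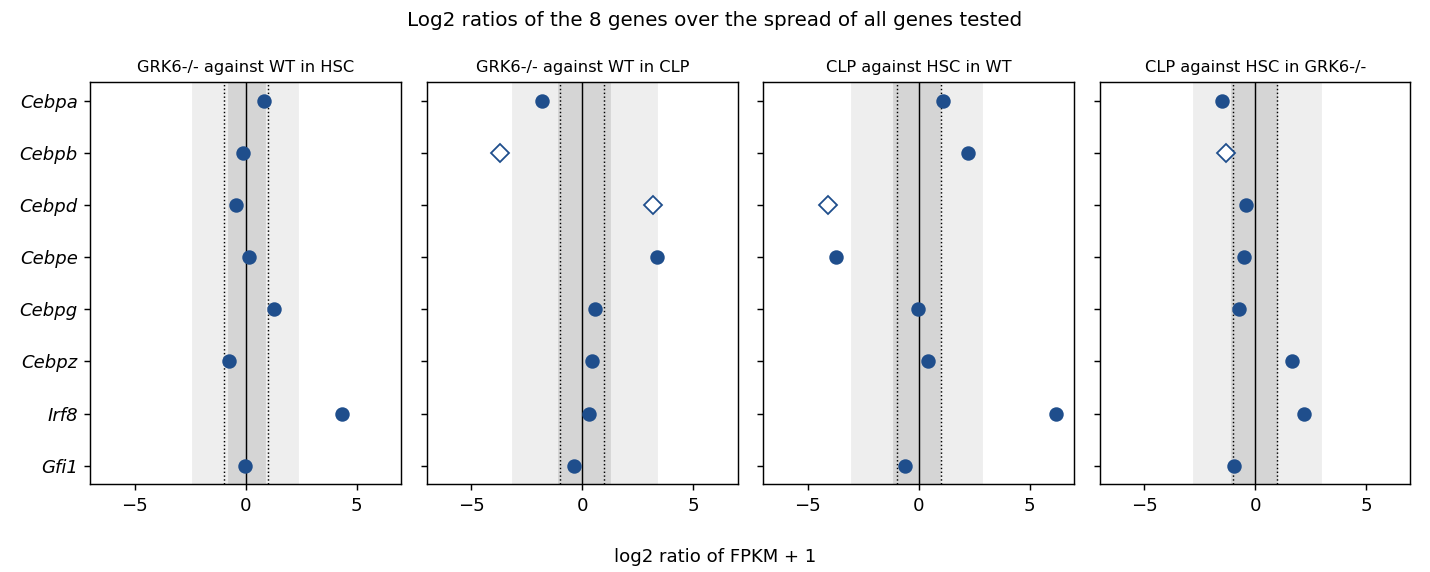
Log2 ratios of FPKM + 1 for the 8 genes in the 4 comparisons, with grey bands for the central 50% and 90% of all genes tested and dotted lines at a ratio of 1 in either direction. Open diamonds mark comparisons in which the gene has no row in 1 of the libraries. Irf8 in HSC (4.32), Cebpb in CLP (-3.69), and Irf8 (6.18), Cebpd (-4.07) and Cebpe (-3.72) between the WT populations lie outside the wider band.

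CLP were set against HSC within each genotype as the other axis of the design. These comparisons share their libraries with those of genotype and are not independent of them. In WT, 3 of the 8 genes were higher in CLP and 2 lower, against 24.1% and 27.3% of 10134 genes. In GRK6-/-, 2 were higher and 2 lower, against 25.0% and 26.2% of 10421 genes. The medians of the 8 genes were 0.19 and -0.61, with -0.05 and -0.04 over all genes. Irf8 was higher in CLP in both genotypes. Its CLP level was 136 times that of HSC in WT (interval 79.3 to 285, log2 ratio 6.18) and 4.62 times in GRK6-/- (interval 4.19 to 5.08, log2 ratio 2.18). Cebpa had log2 ratios of 1.11 in WT and -1.49 in GRK6-/-, and Cebpe of -3.72 and -0.50. Cebpb was 6.86 times higher in CLP than in HSC in WT (interval 3.22 to 15.9). In GRK6-/- it was at 1.495 FPKM in HSC with no row in CLP, a log2 ratio of -1.32 with the pseudocount. Cebpd had no row in WT CLP (log2 ratio -4.07 with the pseudocount), and its log2 ratio in GRK6-/- was -0.42. Cebpz was 3.25 times higher in CLP in GRK6-/- (log2 ratio 1.64) and had a log2 ratio of 0.43 in WT. Gfi1 was lower in CLP by 0.62 and 0.97 on the log2 scale, under the limit in both.

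A fit in limma over the 4 libraries, with genotype and population as terms, left 1 residual degree of freedom and treats the populations as replicates of the genotypes. For genotype, 0 of 11230 genes had an adjusted p under 0.05, and 500 had an unadjusted p under 0.05, which is 4.45%. The population term gave 1 gene and 608 genes. Irf8 was 4.18 higher in CLP on the log2 scale (SE 1.15, adjusted p = 0.695 in limma) and 2.32 higher in GRK6-/- (SE 1.15, adjusted p = 0.999). None of the 8 genes passed the threshold for either term. With a mean-variance trend in limma, the adjusted p of Irf8 for population was 2.83e-05, and with the other settings tried it was 0.848 and 0.874.

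Genes that C/EBP factors are known to regulate were examined as lists. Of 14 primary granule and early myeloid genes, 12 passed the filter in each comparison. In HSC, 0 were higher and 2 lower in GRK6-/-, against 21.9% and 20.4% of all genes, with a median log2 ratio of -0.53. In CLP 1 was higher and 2 lower, against 29.1% and 25.7% of all genes, with a median of -0.23. Elane, neutrophil elastase, was at 7008, 4999.8, 3803 and 3516 FPKM, and Mpo, myeloperoxidase, at 3549.7, 2038, 1023 and 889.9. Both were highest in WT HSC and lower in CLP than in HSC. Those past the limit in HSC were Hp, haptoglobin (log2 ratio -1.23), and Ms4a3 (-1.07). In CLP, Cst7, a cystatin, was lower (-1.65), as was Ctsc (-1.13), and Hp was higher (1.24).

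Of 15 secondary granule and late neutrophil genes, which include targets of C/EBPε, 10 passed the filter in HSC. Of these, 0 were higher and 8 lower in GRK6-/- HSC, against 21.9% and 20.4% of all genes, with a median log2 ratio of -1.99. Cybb (-0.60) and Cd177 (-0.01) did not pass the limit, and Ltf, Ngp, Mmp8 and Retnlg had no row in either HSC library. Cebpe itself had a ratio of 0.14. S100a8, a calcium-binding protein of neutrophils, was at 1706 FPKM in WT HSC and 106 in GRK6-/- HSC (log2 ratio -3.99). Chi3l3, a chitinase-like protein, was at 49.9 and 2.19 FPKM (log2 ratio -3.999). In CLP, 6 were higher and 5 lower of 12, against 29.1% and 25.7% of all genes, with a median of 0.69. Those higher in GRK6-/- CLP were Camp, Ngp, Lcn2, Fcnb, Cybb and Pglyrp1. Camp, cathelicidin, was at 68.0 FPKM and Ngp at 44.7 in GRK6-/- CLP, and neither had a row in WT CLP. Fcnb, a ficolin, was at 0.736 FPKM in WT CLP and 106 in GRK6-/- CLP, and Cybb, a subunit of the NADPH oxidase, at 0.802 and 42.9. The 5 lower ones were S100a9, Retnlg, Mmp8, Itgam and Ltf, none with a row in GRK6-/- CLP. S100a9, the partner of S100a8, was at 269 FPKM in WT CLP, Retnlg at 55.4, Mmp8, a collagenase, at 6.27 and Itgam, an integrin chain of myeloid cells, at 2.08. S100a8 itself did not pass the limit in CLP, at 439 FPKM in WT and 371 in GRK6-/- (log2 ratio -0.24), and so differed from S100a9 there. Ltf, lactoferrin, a classic C/EBPε target, was at 2.40 FPKM in WT CLP and had no row elsewhere.

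**Figure D4:**
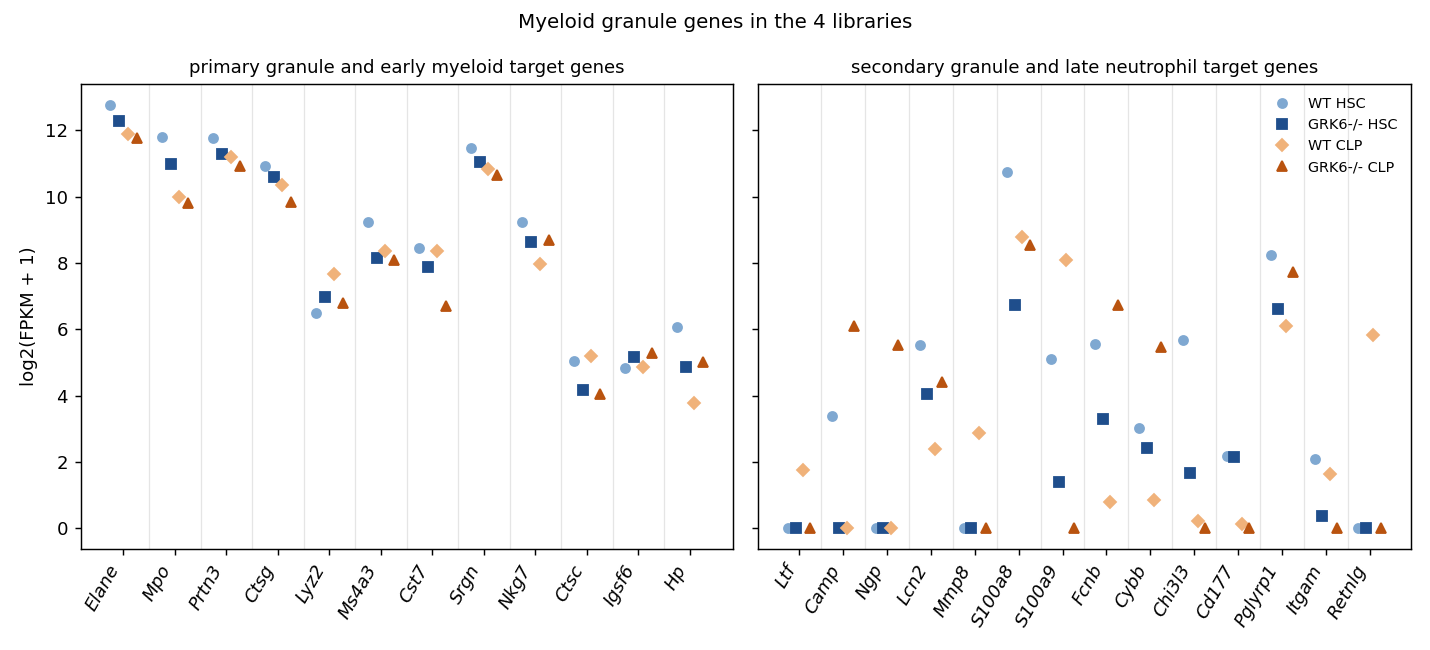
Log2(FPKM + 1) of the primary granule genes and of the secondary granule genes with a row in any library, with 1 point per library and 0 for no row. Of the primary granule genes, 2 of 12 are lower and 0 higher past 2-fold in GRK6-/- HSC, and Hp and Mpo spread most widely over the 4 libraries, while 8 of 10 secondary granule genes are lower in GRK6-/- HSC.

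Among 17 bZIP relatives, which can pair with C/EBP proteins or share their zipper, 3 were higher and 4 lower of 13 tested in HSC (all genes 21.9% and 20.4%), and 2 and 3 of 12 in CLP (all genes 29.1% and 25.7%), with medians of -0.31 and -0.03. Ddit3, which encodes CHOP, a C/EBP partner that blocks DNA binding at classical sites, had a row in GRK6-/- HSC alone, at 64.2 FPKM. Jund was lower in GRK6-/- HSC (log2 ratio -1.88). Jun was at 2.65 FPKM in WT CLP and 22.9 in GRK6-/- CLP (log2 ratio 2.71), while Fosb was at 14.5 in WT CLP with no row in GRK6-/- CLP.

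Of 30 other lineage factors, 8 were higher and 4 lower of 22 in HSC (all genes 21.9% and 20.4%) and 12 and 5 of 26 in CLP (all genes 29.1% and 25.7%), with medians of 0.57 and 0.79. E2f1, a cell cycle factor, was at 42.8, 12.2, 0.757 and 55.8 FPKM. It was under 1 FPKM in WT CLP alone. Irf4, the closest relative of Irf8, had no row in any library.

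A list of receptors of myeloid growth factors and cytokines also held other receptors of myeloid cells, namely Cd14, Fcgr3, Fcgr2b and Cx3cr1. In HSC, 4 of its genes were higher and 2 lower of 10, beside 21.9% and 20.4% of all genes. In CLP, 1 was higher and 5 were lower of 13, beside 29.1% and 25.7%. The medians were 0.36 and -0.07. Csf3r, the G-CSF receptor and a C/EBPα target, was at 25.5, 18.0, 11.7 and 11.7 FPKM and did not pass the limit between genotypes. Il6ra was higher in GRK6-/- HSC (log2 ratio 1.38). Fcgr2b and Cx3cr1 had a row in WT CLP alone, at 23.8 and 18.5 FPKM.

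Regulators and corepressors of these factors had 4 higher and 2 lower of 21 in HSC (all genes 21.9% and 20.4%), and 1 and 1 of 20 in CLP (all genes 29.1% and 25.7%), with medians of 0.06 and -0.04. Trib2, a pseudokinase that promotes the breakdown of C/EBPα, was at 14.6 FPKM in GRK6-/- HSC and at most 0.161 elsewhere. Trib1, which acts likewise, stayed at or under 1.86 FPKM. Celf1, an RNA-binding protein that acts on C/EBP mRNAs, was at 0.493 (WT) and 12.0 FPKM (GRK6-/-) in HSC and at 22.4 in GRK6-/- CLP, with no row in WT CLP. Ehmt2, a histone methyltransferase that works with GFI1, was lower in GRK6-/- CLP (log2 ratio -1.32).

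The genes whose profile over the 4 libraries was most like that of each member were taken from 7713 genes with at least 10 FPKM in any library, by the root mean square difference of centred log2(FPKM + 1). For Irf8 they were 3110009E18Rik, at 0.26, and Fam82a2, at 0.61, both without a row in WT HSC. For Cebpe they were Spryd4 and Bcdin3d, at 0.09 and 0.10, and for Cebpd S1pr4 and Itm2a, at 0.15 each. Cebpa lay nearest to Mrpl36 (0.06) and Emb (0.07), and Cebpb to Schip1 (0.12) and Vamp4 (0.13). Cebpg lay nearest to Tmem101 (0.05) and Tprkb (0.06), Cebpz to Cyld (0.03) and Dusp2 (0.06), and Gfi1 to Rpl31 (0.02) and Snrpg (0.03). With 4 libraries, likeness of this kind is shared by many genes and is given as a description.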

How the data were processed

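The deposited values are FPKM per gene for 4 libraries, made by the authors from 100-base paired-end reads with TopHat (version 1.4.0 in the submitters' processing notes) and the Tuxedo suite on mm9. Cells were amplified individually with poly(dT) priming and 20 + 10 PCR cycles. The files hold no counts, no comparisons of the authors and 0 columns of other series. Rows of 1 symbol were summed, 325 names occurring in joint rows were left out, and a gene without a row was set to 0. Ratios are log2 of FPKM + 1 (pseudocount 1), with at least 1 FPKM in either library, and are smaller than FPKM ratios for low genes. Depth came from the FPKM steps of genes with 1 transcript of at least 1500 bases and FPKM under 0.3. Fragments are FPKM times the longest transcript and depth, with 95% exact Poisson intervals and, for ratios, exact binomial ones. limma 3.58.1 (R 4.3.3) fitted population and genotype, with Benjamini-Hochberg adjustment. The depth and limma steps were first run on simulated data simpler than these libraries, which checks the code and not their accuracy here. Python 3.11.15, pandas 2.3.3 and scipy 1.17.1 were used. Sequences came from mm9 and from RefSeq (GRCm38.p6).

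Named were the 8 genes, 12 genes always given (Grk6, Spi1, Ddit3, Gfi1b, Irf4, Csf3r, Csf1r, Elane, Mpo, Ltf, Trib1, Trib2), up to 2 genes per list and genotype comparison with the largest ratio past 2-fold at 10 FPKM or more, and the 2 nearest genes of each member. Ctsc, Prtn3, Ctsg, Cd14, Fcgr3, Ngp, Fcnb, Cybb, Lcn2, Pglyrp1, Cd177, Retnlg, Mmp8, Itgam and the dendritic cell markers were named after their values were seen. The members and lists were chosen with earlier results of these data known. Alternatives were a pseudocount of 0.1, no filter, at least 1 FPKM in both libraries, rescaling to the median, the highest row per symbol, joint rows kept, a mean-variance trend, the shortest transcript and a step limit of 0.2 FPKM. The deposited span of Cebpd was added after seeing the data.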

Additional observations from a re-analysis of the deposited data

Results flagged for a closer look

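For 3 of the 8 genes the difference between GRK6-/- and WT had opposite signs in HSC and CLP, with 1 library per group, and these differences between populations were not tested. The share of all genes with opposite signs was not taken, so the count is no result about the 8 genes as a set. The HSC ratios of all 3 were under the 2-fold limit, as was the CLP ratio of Cebpz. Cebpa had a log2 ratio of 0.81 in HSC and -1.80 in CLP. Cebpd had -0.46 in HSC and 3.19 in CLP, the latter against a library without a row and so dependent on the pseudocount. Cebpz had -0.76 in HSC and 0.45 in CLP.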

How the results depend on the processing

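The alternatives gave 188 log2 ratios of the 8 genes. None of these crossed the 2-fold limit or changed sign where it had been past it, and 184 moved by less than the counting error. Most of them could not move. A filter does not alter a gene's own ratio, and no member had a joint row or more than 1 row in a library. Only rescaling and the pseudocount could shift a ratio, and with a pseudocount of 0.1, 28 of 32 stayed within the counting error. The other 4, with a pseudocount of 0.1, were the 4 ratios that involve a gene without a row (Cebpb and Cebpd), whose size depends on the pseudocount. With at least 1 FPKM required in both libraries, genes without a row dropped out. In CLP, 2 of 6 members tested then passed 2-fold between genotypes instead of 4 of 8. Between populations, 4 of 7 did so instead of 5 of 8 in WT, and 3 of 7 instead of 4 of 8 in GRK6-/-. For genotype, the genes past 2-fold went from 4346 of 10256 to 2646 of 8269 in HSC and from 5593 of 10214 to 3046 of 7517 in CLP. For population, they went from 5209 of 10134 to 3035 of 7776 in WT and from 5340 of 10421 to 3058 of 7925 in GRK6-/-. In limma, a mean-variance trend raised the calls from 0 to 57 for genotype and from 1 to 80 for population, and population calls were 0 with a pseudocount of 0.1 and 0 with no filter (565 and 614 genes with an unadjusted p under 0.05). The cause was not tested. The median of the estimated fragments was 139, or 77 with the shortest transcript. With a step limit of 0.2 FPKM it was 206, and the depth of GRK6-/- CLP became 5600000 in place of 2780000. Over the deposited span, an alternative chosen after seeing the data, Cebpd had 125, 116 and 60 fragments in the 3 libraries with a row, in place of 55, 51 and 27. No paired analysis was possible because each group has 1 library. Leaving out a replicate was not possible for the same reason. Intervals cover counting error only, and PCR-amplified reads are not independent molecules.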
